A study of Mus musculus with 26 samples.

Results

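Primary tumors of a mouse model of Group3 medulloblastoma were set against neurospheres that share the loss of Trp53 and Cdkn2c but lack the Myc genotype. The comparison rests on 6 of the 26 arrays of the series: the 3 untreated Group3 tumors and the 3 Trp53 Cdkn2c neurosphere samples whose titles carry the code dka. Tumors are labelled Trp53-/-, Cdkn2c-/- with Myc and are called medulloblastoma tumors. The 3 Group3 neurosphere arrays of the same code have that genotype in culture, and their values stand beside the main ones because they share the culture with one side and the genotype with the other. Trp53 Cdkn2c neurospheres are labelled Trp53-/-, Cdkn2c-/- and as granule neural progenitors. Every group is of the C57BL/6 strain, and the series design places the starting cells at postnatal day 7. Neurospheres are floating cultures of neural cells. The labels give no host, tumor site, route by which Myc was introduced or number of animals, and they do not tell if each array had its own animal or culture. The p-values therefore measure the spread between arrays within groups, which may be technical. That spread is pooled over all 26 arrays, most of them outside this comparison. Genotype and growth as a tumor or in culture change together in this comparison and cannot be told apart.

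Granule neuron progenitors divide in the outer layer of the young cerebellum under Sonic hedgehog (SHH), which acts through the receptor Ptch1, the signal transducer Smo and the Gli transcription factors. They carry the transcription factor Atoh1 and then become granule neurons, marked by Neurod1 and Rbfox3. MYC and its paralog MYCN pair with MAX, bind the E-box CACGTG and are known for raising genes of ribosome assembly, nucleotide synthesis and glycolysis. Group 3 is the class of medulloblastoma in which MYC is often amplified.

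Values are log2 intensities, 1 per gene, from the brightest probe set with 1 gene symbol. Where the mean over all probe sets of a called gene that was named by rule moved its difference by over 1.5 times, that mean is given beside it. A difference is tumors minus Trp53 Cdkn2c neurospheres, so that 1.0 is a 2-fold higher level in tumors, and a gene was called at an adjusted p below 0.05 in limma. The median of an array averaged 4.70 in tumors and 4.78 in Trp53 Cdkn2c neurospheres. Where one group lay below its array median, the size of a difference may be understated. The SD of the difference between 2 arrays, taken over genes, was 0.587 to 0.632 among tumors, 0.405 to 0.519 among Trp53 Cdkn2c neurospheres, and 0.856 to 0.918 for a tumor set against one of these neurospheres.

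Of 17097 genes tested, 2668 were called, a background of 15.6%. In tumors 1565 were higher (9.15%) and 1103 lower (6.45%). The median difference over all genes was 0.08 and the median size among called genes was 1.07. Of the called genes, 789 were at least 2-fold higher (4.61%) and 678 at least 2-fold lower (3.97%). The 3 tumor and 3 neurosphere arrays did not overlap for 6175 genes (36.1%). With each array centred on its own median the split was 2061 higher and 927 lower, or 69.0% higher against 58.7% in the values as deposited.

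The genes named in the genotype gave no single direction. Myc, read by 1 probe set, was at 8.33, 6.93 and 9.07 in tumors, against 8.14, 9.06 and 8.09 in Trp53 Cdkn2c neurospheres. The groups overlapped, and the difference of -0.32 (SE 0.50) was not called (limma adjusted p = 0.739). Which transcript part that probe set reads, and if it can read an introduced Myc, was not examined. Cdkn2c, which encodes the CDK inhibitor p18, lay between 3.47 and 3.76 in tumors and between 3.28 and 3.40 in Trp53 Cdkn2c neurospheres, below the array medians in both, so it gave no contrast.

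Mycn gave opposite answers on its 3 probe sets. The brightest was at 13.60, 13.22 and 13.40 in tumors, against 4.48, 4.82 and 4.46 in Trp53 Cdkn2c neurospheres. Its difference of 8.82 (SE 0.33, limma adjusted p = 4.83e-13) was the largest rise of any gene. By contrast, the next brightest was at 5.67, 4.95 and 4.82 in tumors, against 11.42, 11.48 and 11.48 in Trp53 Cdkn2c neurospheres, a difference of -6.31 (adjusted p = 4.24e-13 over all probe sets). The dimmest differed by -3.46 (adjusted p = 5.43e-13). On all 3 probe sets the arrays of the groups stood apart with no overlap. Averaging them left -0.32 (adjusted p = 0.132), so no direction for the gene as a whole is given, although its brightest probe set places it among the genes called higher. Which transcript part each probe set reads was not examined. In Group3 neurospheres the same 3 probe sets were at 12.68, 4.64 and 3.66, the pattern of the tumors. Mycl, another paralog, was lower in tumors (-1.62, SE 0.49, limma adjusted p = 0.0307), and lost its call in 5 of 14 alternative fits, which were those without tumor replicate 1, 2 or 3 or without neurosphere replicate 2 or 3. The mean of its probe sets differed by -0.86. Of the 9 other measured genes of the MYC and MAX network none was called, among them the MAX partners Mxd1, Mxi1, Mnt and Mga.

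The 15 largest falls included the granule progenitor genes Sfrp1, Gli1, Barhl1 and Atoh1, and the 15 largest rises included secreted, receptor and enzyme genes of many kinds. The plot of the 15 largest rises and 15 largest falls gives each of the 6 arrays. All 15 falls were called in each alternative fit, and so were 13 of the 15 rises. Mycn and Mgp, a matrix Gla protein gene, were the exceptions, and Mgp lost its call in 3 of 14 fits.

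**Figure D1:**
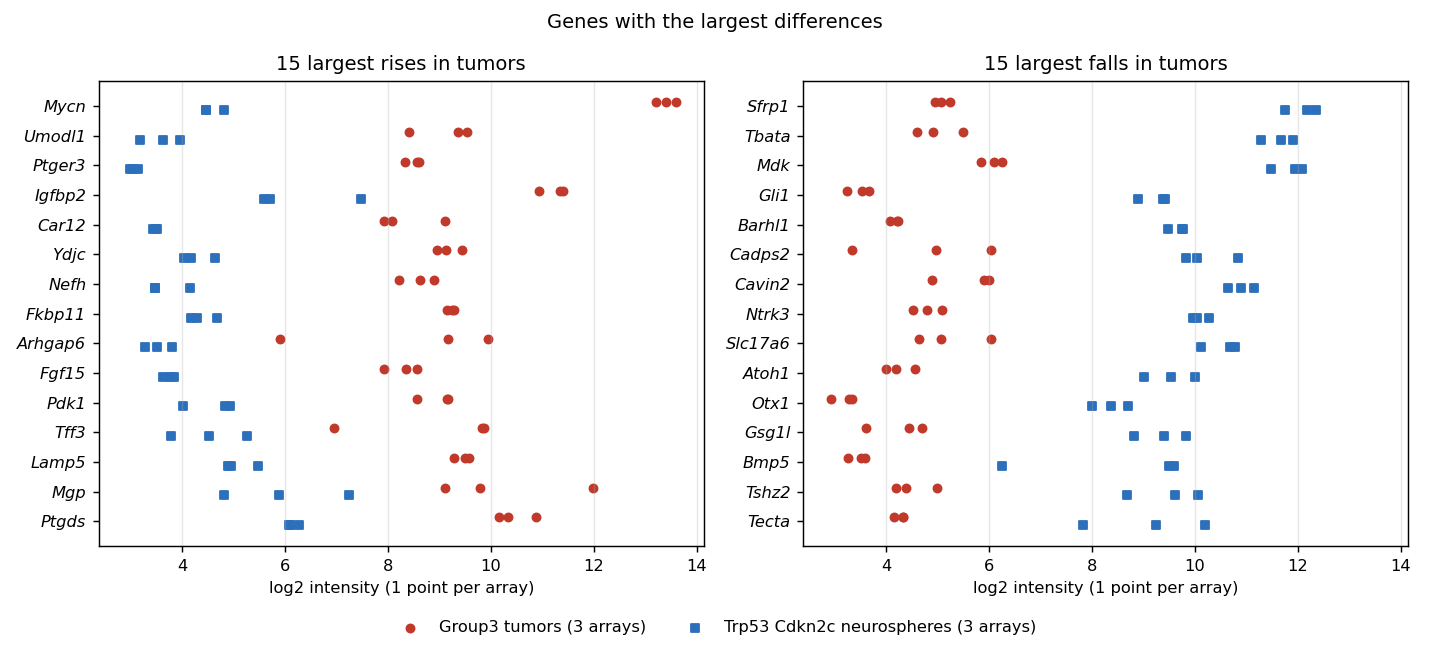
The 15 largest rises (left) and 15 largest falls (right) in Group3 tumors against Trp53 Cdkn2c neurospheres, by rank from the top, with log2 intensity on the horizontal axis and 1 point per array. Red circles are tumors and blue squares are Trp53 Cdkn2c neurospheres. The arrays of the groups do not overlap for any gene shown, which the selection required, and 11 of the 15 rises have a Trp53 Cdkn2c neurosphere mean below the array median. The selection also required a higher group mean above the array median and left out predicted genes and clone names.

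Among the rises, 6 genes were high in tumors and low in both kinds of neurosphere. Umodl1, a uromodulin-like gene, was at 9.36, 9.54 and 8.42 in tumors, against 3.64, 3.95 and 3.19 in Trp53 Cdkn2c neurospheres. Its difference was 5.51 (SE 0.77, limma adjusted p = 6.09e-05), and its mean in Group3 neurospheres was 3.94. Ptger3, a receptor for prostaglandin E2, stood at 8.60, 8.56 and 8.33 in tumors and at 3.0, 3.06 and 3.14 in Trp53 Cdkn2c neurospheres, a difference of 5.44. Averaging its 2 probe sets reduced that to 2.77. Nefh, the heavy neurofilament chain of large axons, differed by 4.87, Fgf15, a secreted growth factor gene, by 4.52, Tff3, a trefoil peptide gene, by 4.36, and Lamp5 by 4.34. In Group3 neurospheres these 4 genes averaged between 3.5 and 4.60, and their differences there from Trp53 Cdkn2c neurospheres ran from -0.51 to 0.03.

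Other large rises were also high in Group3 neurospheres. Igfbp2, which binds insulin-like growth factors, was at 11.34, 11.41 and 10.94 in tumors, at 12.20, 11.69 and 11.97 in Group3 neurospheres, and at 7.47, 5.70 and 5.60 in Trp53 Cdkn2c neurospheres. Ptgds, a prostaglandin D synthase gene, averaged 10.46 ± 0.37 in tumors, 10.32 ± 0.09 in Group3 neurospheres and 6.15 ± 0.11 in Trp53 Cdkn2c neurospheres (SD, n = 3 each). For Pdk1, the kinase that turns pyruvate away from mitochondria, the means were 8.96, 8.77 and 4.60 in the same order. None of these 3 genes was called between tumors and Group3 neurospheres, with limma adjusted p of 0.298, 0.910 and 0.805, which does not show that their levels were equal. Arhgap6, which encodes a GTPase activating protein, was uneven among tumors, at 5.90, 9.95 and 9.17, against 3.29, 3.81 and 3.51 in Trp53 Cdkn2c neurospheres.

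For Car12, Ydjc and Fkbp11 the mean in Group3 neurospheres lay in between. Fkbp11 averaged 9.23 in tumors, 7.99 in Group3 neurospheres and 4.38 in Trp53 Cdkn2c neurospheres. It was not called between tumors and Group3 neurospheres (limma adjusted p = 0.356). Car12, a membrane carbonic anhydrase gene, averaged 8.37 ± 0.64 in tumors, 6.56 ± 0.51 in Group3 neurospheres and 3.48 ± 0.04 in Trp53 Cdkn2c neurospheres (SD, n = 3 each). Averaging all probe sets of a gene cut the difference of Car12 from 4.89 to 2.58 and that of Fkbp11, a peptidyl-prolyl isomerase gene, from 4.85 to 1.97.

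The gene lists below are given by how many measured members were called in each direction, to be read against 9.15% higher and 6.45% lower over all genes. The plot of called shares by list shows the lists of MYC targets, of folate and nucleotide synthesis and of glycolysis at the top, and the SHH and granule progenitor list with the largest lower share of the 33 lists.

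**Figure D2:**
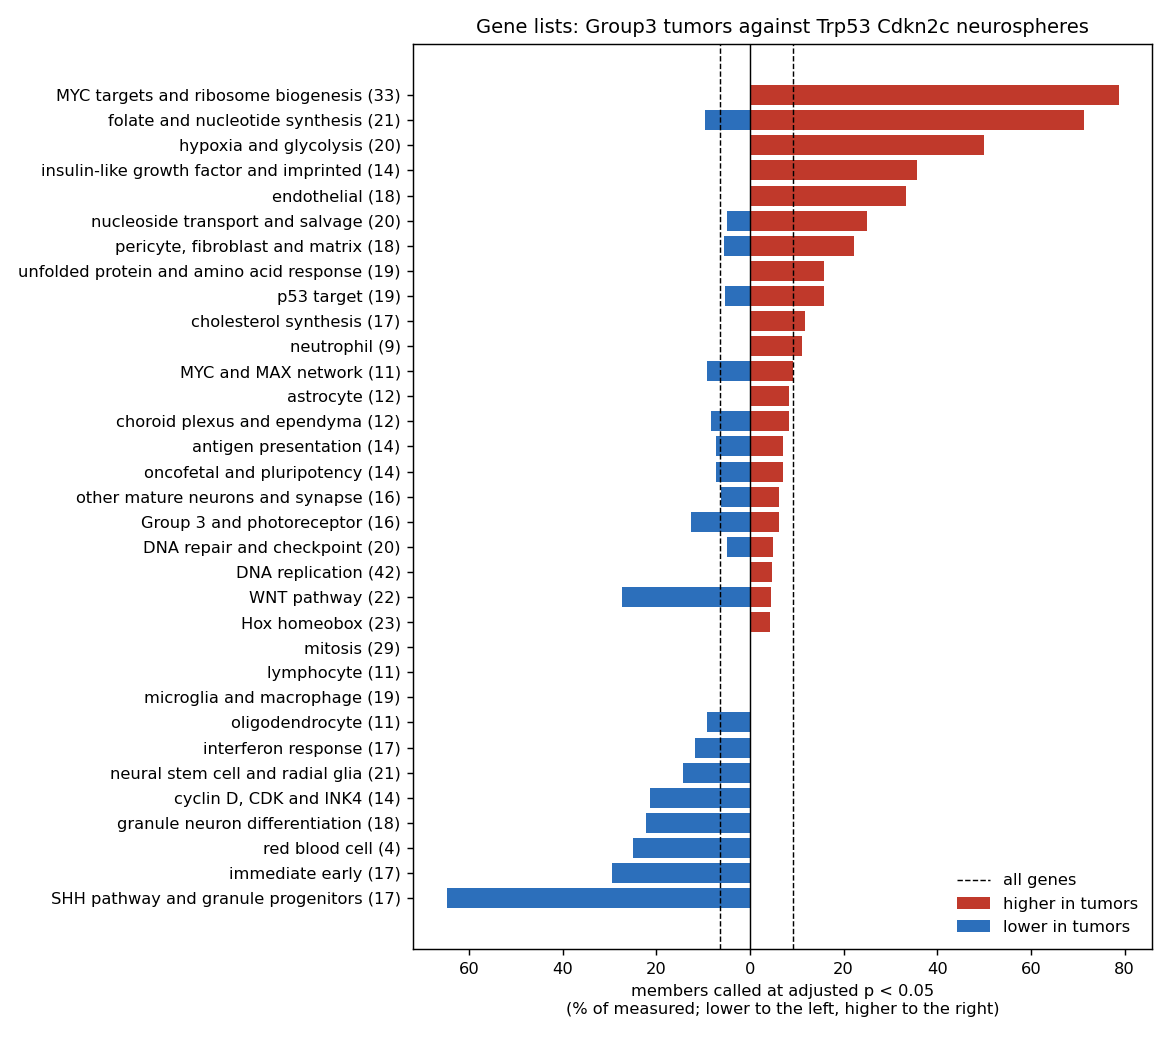
Share of the measured members of each of 33 gene lists (number measured in brackets) called higher in Group3 tumors (red, right) or lower (blue, left) than in Trp53 Cdkn2c neurospheres, in percent, with dashed lines at 9.15% and 6.45% for all genes. The list of MYC targets and ribosome biogenesis stands highest with 26 of 33 called higher, and the SHH and granule progenitor list has 11 of 17 called lower.

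The SHH pathway and granule progenitor genes were lower in tumors. Of 17 measured, 11 fell and none rose, with a median difference of -1.97, and 14 had arrays that did not overlap with tumors lower (14% of all genes). Leaving out tumor replicate 1 reduced the number of falls to 7. A rise of 1 member was called with each array centred on its median and without neurosphere replicate 1. The fit on only genes above the array median in 1 of the 2 groups also called 1 rise. The SHH target Gli1, itself a transcription factor of the pathway, was at 3.23, 3.66 and 3.52 in tumors, against 8.89, 9.37 and 9.42 in Trp53 Cdkn2c neurospheres (-5.75, SE 0.57, limma adjusted p = 1.39e-06). All 3 tumors were below the array median and all 3 neurosphere samples were far above it. Atoh1, the factor that specifies the lineage, was at 3.99, 4.56 and 4.18 in tumors and at 9.53, 9.01 and 10.00 in Trp53 Cdkn2c neurospheres (-5.27, SE 0.50, adjusted p = 8.47e-07). Barhl1, a homeobox factor of the same cells, had 4.24, 4.21 and 4.07 in tumors and 9.77, 9.75 and 9.48 in Trp53 Cdkn2c neurospheres (-5.49, SE 0.17, adjusted p = 5.25e-14). These markers of granule progenitors were thus bright in the neurospheres that the labels call by that name, and dim in the tumors. Sfrp1, a secreted Wnt modulator, showed the deepest fall of any gene, at 5.23, 4.94 and 5.07 in tumors, against 11.74, 12.18 and 12.35 in Trp53 Cdkn2c neurospheres (-7.01, SE 0.26, adjusted p = 4.83e-13).

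Other members of the pathway had smaller differences, and 6 of the 17 were not called. Boc, a coreceptor for SHH, averaged 5.51 ± 0.23 in tumors and 8.78 ± 0.45 in Trp53 Cdkn2c neurospheres (SD, n = 3 each), a difference of -3.26 (limma adjusted p = 4.36e-06). Gli2 also fell (-2.38, adjusted p = 0.0365), as did Hhip, a decoy receptor and SHH target (-2.31, adjusted p = 0.0224). The transcription factors Meis1 (-2.09), Pax6 (-1.97), Zic2 (-1.75) and Zic5 (-1.22) fell too. Smo differed by -0.43 (adjusted p = 0.141). Ptch1, the SHH receptor and also a target of the pathway, was not called, at 9.15, 9.19 and 9.5 in tumors, against 9.90, 6.96 and 4.61 in Trp53 Cdkn2c neurospheres (2.12, SE 0.75, adjusted p = 0.0629). Its spread lay in the neurospheres, where no 2 replicates were close. The cyclins Ccnd1 and Ccnd2 differed by -1.32 and -0.91 and were not called (adjusted p = 0.114 and 0.411).

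Of 18 granule neuron genes measured, 4 fell and none rose, against 6.45% lower and 9.15% higher over all genes, with a median difference of -0.72. The arrays did not overlap for 10 of them with tumors lower (14% of all genes) and for 2 with tumors higher (22.1%). In at least 1 group 15 of the 18 were above the array median. The count of falls was 1 without tumor replicate 1 or neurosphere replicate 1, and 2 without tumor replicate 2 or 3 or neurosphere replicate 2. A fit on the 12 dka arrays gave 7. Neurod1, which drives granule neuron differentiation, was at 11.85, 11.52 and 11.84 in tumors, against 12.50, 12.33 and 12.01 in Trp53 Cdkn2c neurospheres (-0.54, SE 1.03, limma adjusted p = 0.794). Every tumor was below every neurosphere sample, but the difference was smaller than its SE. That SE pools the spread within all 9 groups of the series, and the spread within these 2 groups was narrower. Rbfox3, which encodes the neuronal marker NeuN, had 10.65, 10.43 and 10.27 in tumors and 11.50, 11.50 and 11.35 in Trp53 Cdkn2c neurospheres (-1.0, SE 0.65, adjusted p = 0.335). Elavl3, a neuronal RNA-binding protein gene, averaged 9.60 ± 0.19 in tumors and 10.15 ± 0.25 in Trp53 Cdkn2c neurospheres, and Tubb3, a neuronal tubulin gene, 10.84 ± 0.21 in tumors and 10.36 ± 0.29 in these neurospheres (SD, n = 3 each). The 4 that fell were Etv1 (-2.40), Reln, which encodes the secreted protein reelin (-1.79), Nfia (-0.95) and Grin2c (-0.76), and each lost its call in at least 2 alternative fits.

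Set beside the Group3 neurospheres, the same genes looked different. Neurod1 averaged 11.74 ± 0.19 in tumors and 3.91 ± 0.20 in Group3 neurospheres (SD, n = 3 each), a difference of 7.83 (SE 1.03, limma adjusted p = 3.53e-05). Elavl3 was 5.74 higher in tumors than in Group3 neurospheres, Rbfox3 5.09 and Tubb3 4.82. Of the 18 granule neuron genes, 10 were higher and 1 lower in tumors than in Group3 neurospheres (8.81% and 9.74% of all genes). Most of the progenitor genes did not share that pattern. Gli1, Atoh1, Barhl1 and Sfrp1 averaged 3.47, 4.24, 4.17 and 5.08 in tumors and 3.93, 3.68, 4.03 and 4.56 in Group3 neurospheres. Only 2 of the 17 progenitor genes, Zic5 and Nhlh1, were called between tumors and Group3 neurospheres, both higher in tumors. Nhlh1, a neuronal helix-loop-helix gene, was higher by 4.0. These comparisons share arrays, so their differences are not separate evidence. In tissue, fewer cells of a type and less RNA per cell cannot be told apart.

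**Figure D3:**
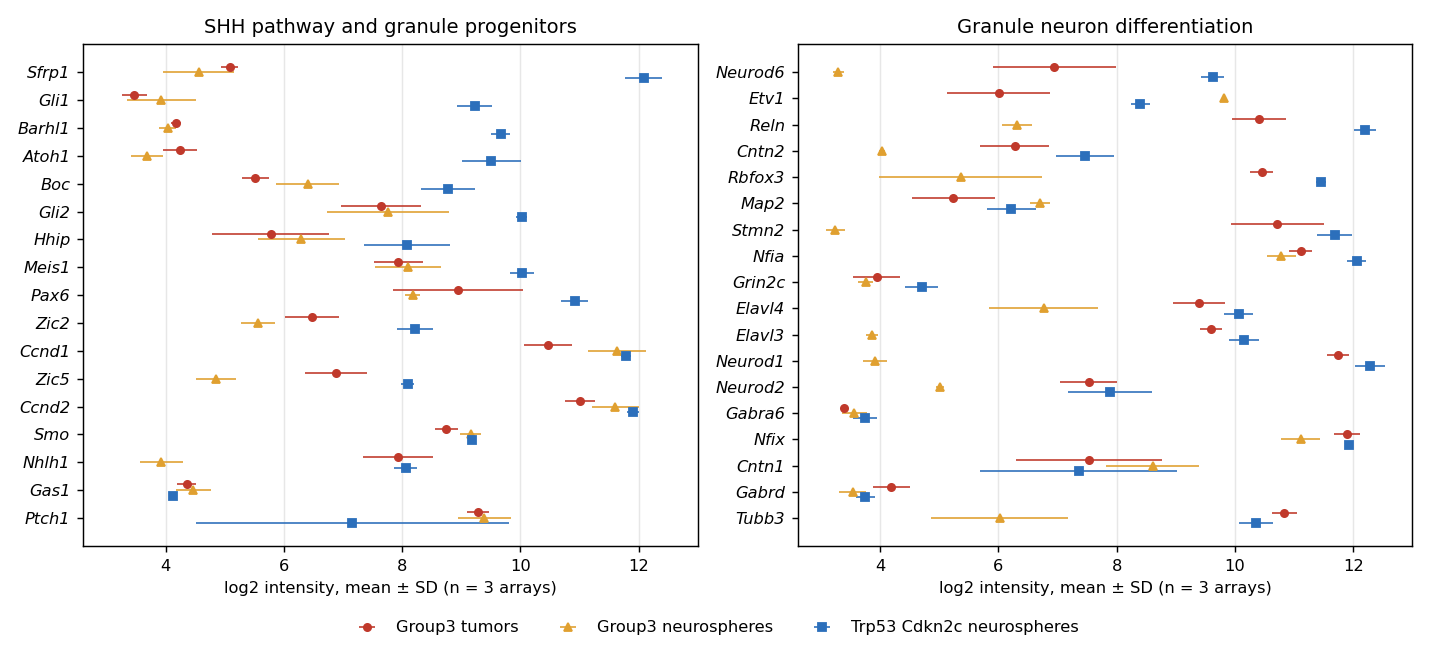
Mean log2 intensity with SD (n = 3 arrays) of SHH pathway and granule progenitor genes (left) and granule neuron genes (right) in Group3 tumors (red circles), Group3 neurospheres (yellow triangles) and Trp53 Cdkn2c neurospheres (blue squares). For Gli1, Atoh1, Barhl1 and Sfrp1 both Group3 samples lie far left of Trp53 Cdkn2c neurospheres, while for Neurod1, Elavl3, Rbfox3 and Tubb3 the tumors lie beside Trp53 Cdkn2c neurospheres and Group3 neurospheres lie far left.

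The other genes among the 15 largest falls had varied roles. Tbata fell (-6.62), as did Cavin2, a gene of caveolae (-5.30), Gsg1l, an auxiliary subunit gene of AMPA receptors (-5.09), and Tecta, the alpha-tectorin gene of the inner ear (-4.82). Mdk, a heparin-binding growth factor gene, was at 5.84, 6.25 and 6.10 in tumors, against 11.95, 11.47 and 12.08 in Trp53 Cdkn2c neurospheres (-5.77, SE 0.59, limma adjusted p = 2.02e-06). Slc17a6, the vesicular glutamate transporter VGLUT2, had 6.03, 5.05 and 4.64 in tumors and 10.12, 10.68 and 10.78 in Trp53 Cdkn2c neurospheres (-5.28, SE 1.09, adjusted p = 0.00226). Cadps2, which acts in dense-core vesicle release (-5.45), the homeobox factor Otx1 (-5.17) and Bmp5, a bone morphogenetic protein gene (-4.99), also fell. Ntrk3, the receptor for neurotrophin 3, and Tshz2 stood apart in Group3 neurospheres. Ntrk3 averaged 4.80 in tumors, 7.85 in Group3 neurospheres and 10.09 in Trp53 Cdkn2c neurospheres, and each of the 3 differences was called. The mean of its probe sets differed by -2.98 between tumors and Trp53 Cdkn2c neurospheres, against -5.29 for the brightest. Tshz2 had the same order at 4.52, 6.84 and 9.45.

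Stem cell and radial glia genes gave 3 falls and no rise among 21 measured, with a median of -0.35. Sox9, a transcription factor of glial progenitors, was at 4.82, 5.45 and 5.42 in tumors, against 9.10, 8.79 and 9.22 in Trp53 Cdkn2c neurospheres (-3.81, SE 0.64, limma adjusted p = 0.000387), and the mean of its probe sets differed by -2.54. Hes1, a Notch target, fell (-1.93, adjusted p = 0.0134), as did Slc1a3, a glial glutamate transporter gene (-1.05), and both lost the call in some alternative fits. Leaving out neurosphere replicate 2 or 3 left 1 fall. Sox2 was uneven in tumors, at 6.76, 5.81 and 8.75, against 8.03, 8.77 and 8.64 in Trp53 Cdkn2c neurospheres, and was not called. The list level averaged 6.86 in tumors, 8.48 in Group3 neurospheres and 7.21 in Trp53 Cdkn2c neurospheres. Against Group3 neurospheres, 10 of the 21 were lower in tumors and 2 higher (9.74% and 8.81% of all genes). Between Group3 and Trp53 Cdkn2c neurospheres 10 were higher and 3 lower, against 13.4% and 9.22% of all genes.

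Markers that define Group 3 medulloblastoma in patients, many of them photoreceptor genes, did not rise as a group. Of 16 measured, 1 was higher and 2 were lower, and 4 were above the array median in either group. The number lower was 1 without tumor replicate 2 or 3 or neurosphere replicate 2 or 3. One of the 2 was the photoreceptor factor Nrl (-0.53), below the array median in both groups, whose call was lost in 8 of 13 alternative fits. Otx2, a homeobox factor often overexpressed in human Group 3 tumors, was at 3.60, 7.49 and 5.03 in tumors, against 9.54, 9.14 and 9.34 in Trp53 Cdkn2c neurospheres (-3.96, SE 0.74, limma adjusted p = 0.000968). All 3 tumors were below all 3 neurosphere samples, with a wide spread among tumors. Npr3, a natriuretic peptide receptor gene, was the one higher, at 8.53, 8.23 and 8.35 in tumors and 4.77, 6.34 and 5.33 in Trp53 Cdkn2c neurospheres (2.89, SE 0.70, adjusted p = 0.00764), with 1.55 for the mean of its probe sets. Hox homeobox genes and the oncofetal and pluripotency genes were mostly dim, with 1 of 23 and 1 of 14 called higher. Those were Hoxb5 (0.37) and Utf1 (0.70), both below the array medians, and their calls were lost in 8 and 1 of 13 alternative fits. Without tumor replicate 1 or 3, or without any 1 neurosphere replicate, no Hox gene was called.

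Wnt pathway genes gave 6 falls and 1 rise among 22. Nkd1, a feedback inhibitor of Wnt signalling, was at 5.44, 6.50 and 5.69 in tumors, against 9.39, 9.49 and 9.65 in Trp53 Cdkn2c neurospheres (-3.63, SE 0.34, limma adjusted p = 5.63e-07). The mean of its 4 probe sets differed by -1.77. The receptors Fzd7 (-1.52), Fzd3 (-1.05) and Fzd1 (-0.64), the coreceptor Lrp6 (-0.60) and the ubiquitin ligase Rnf43 (-1.40) fell. Of these, Fzd7, Fzd3 and Rnf43 lost their calls in 2, 9 and 5 of 14 alternative fits, and the means of the probe sets of Fzd7 and Fzd3 differed by -0.76 and -0.59. Lgr5, a receptor for R-spondins and a Wnt target, rose by 2.56 (adjusted p = 0.00124), at 7.93, 8.60 and 8.95 in tumors and 6.67, 6.08 and 5.04 in Trp53 Cdkn2c neurospheres. The mean of its probe sets differed by 1.32. Axin2, a common Wnt target, differed by -0.84 and was not called. The number of falls was 3 without tumor replicate 1, 2 without neurosphere replicate 1 and 3 without neurosphere replicate 3.

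Insulin-like growth factor and imprinted genes were higher in tumors for 5 of 14 measured, with none lower and a median of 1.64. Besides Igfbp2, these were Igfbp3, Igfbp4, Dlk1 and Grb10. Grb10 lost its call in 5 of 14 alternative fits, and its difference was 3.5, or 1.95 for the mean of its probe sets. Dlk1, an imprinted Notch-related gene of embryonic tissues, was at 7.5, 8.24 and 7.22 in tumors, against 4.41, 4.31 and 4.17 in Trp53 Cdkn2c neurospheres (3.36, SE 0.63, limma adjusted p = 0.00103), with 4.69 on average in Group3 neurospheres. Igfbp3 averaged 8.54 in tumors, 10.40 in Group3 neurospheres and 5.18 in Trp53 Cdkn2c neurospheres, and Igfbp4 9.38, 10.76 and 6.93 in the same order. Igf2 itself was uneven and not called, at 8.55, 10.91 and 10.36 in tumors, against 9.28, 8.39 and 6.19 in Trp53 Cdkn2c neurospheres (adjusted p = 0.0654).

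MYC targets and ribosome biogenesis genes had the largest share called higher of the 33 lists. Of 33 measured, 26 were called higher and none lower, with a median difference of 1.13, and 30 had arrays that did not overlap with tumors higher (22.1% of all genes). The count was 24 to 26 over the alternatives that kept the same call rule. The mean level of the list was 10.06, 10.09 and 9.92 in tumors, 9.25, 9.16 and 9.12 in Group3 neurospheres, and 9.0, 8.85 and 9.07 in Trp53 Cdkn2c neurospheres. All 3 tumors lay above all 6 neurosphere samples, and 26 of the 33 were also higher in tumors than in Group3 neurospheres, against 8.81% of all genes. Between Group3 and Trp53 Cdkn2c neurospheres 3 were higher and 1 lower, against 13.4% and 9.22% of all genes. These are counts from comparisons with shared arrays.

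By role, the largest 3 rises of the list were of ribosome assembly factors. Nop16 was at 10.71, 9.88 and 10.35 in tumors, against 7.81, 7.85 and 8.59 in Trp53 Cdkn2c neurospheres (2.23, SE 0.22, limma adjusted p = 1.60e-06). Rrp12 had 9.33, 9.65 and 9.08 in tumors and 7.60, 6.94 and 7.85 in Trp53 Cdkn2c neurospheres (1.89, SE 0.28, adjusted p = 0.00014). Rrp9, part of the U3 small nucleolar ribonucleoprotein, had 9.45, 9.57 and 9.53 in tumors and 8.16, 7.70 and 7.21 in Trp53 Cdkn2c neurospheres (1.83, SE 0.25, adjusted p = 4.72e-05). The subunits of RNA polymerase I, Polr1a and Polr1b, rose by 1.31 and 0.87. The polyamine enzymes Srm and Odc1 rose by 1.49 and 0.86, and Cad, which starts pyrimidine synthesis, by 1.27. Npm1, an abundant nucleolar protein gene, rose by 0.34 (adjusted p = 0.0492). The 7 not called included Nop58, Gar1, Eif4e and Ncl, and Ncl was near the array median in both groups.

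The promoters of Ldha, which encodes lactate dehydrogenase A, and of the ribosome assembly methyltransferase gene Nop2 are shown because both genes rose and both hold the E-box that MYC and MAX bind. These are the 250 bases before a gene start (for Ldha the first of 2 starts in the table), from RefSeq on GRCm38.p6, plus strand, with each CACGTG in capitals.
Ldha, chr7:46845554-46845803: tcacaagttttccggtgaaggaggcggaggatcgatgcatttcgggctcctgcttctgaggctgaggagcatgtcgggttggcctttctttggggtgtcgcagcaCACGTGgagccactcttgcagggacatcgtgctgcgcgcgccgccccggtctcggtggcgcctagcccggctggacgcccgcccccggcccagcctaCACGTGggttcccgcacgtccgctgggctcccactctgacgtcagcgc
Nop2, chr6:125131633-125131882: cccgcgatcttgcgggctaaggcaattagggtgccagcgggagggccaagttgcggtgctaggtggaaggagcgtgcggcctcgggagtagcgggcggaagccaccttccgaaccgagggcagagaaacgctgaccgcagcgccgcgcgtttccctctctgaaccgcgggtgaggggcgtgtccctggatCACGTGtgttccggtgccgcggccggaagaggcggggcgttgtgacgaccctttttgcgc
The E-boxes of Ldha begin 145 and 48 bases before that start, and that of Nop2 begins 60 bases before its start. The window of the other Ldha start, chr7:46846832-46847131, held 0 matches. Ldha was at 12.82, 12.95 and 12.77 in tumors, against 11.56, 11.04 and 11.32 in Trp53 Cdkn2c neurospheres (1.54, SE 0.23, limma adjusted p = 0.000102). Nop2 was at 9.63, 9.70 and 9.30 in tumors, against 8.17, 8.02 and 8.09 in Trp53 Cdkn2c neurospheres (1.45, SE 0.22, adjusted p = 0.000164).

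CACGTG, which reads the same on both strands, was counted in windows of 250 bases before to 50 after each gene start. It was in 7.15% of all 32851 windows and in 10.2% of the 13605 measured genes with a window. Among genes with a window, it was in 15.2% of the 1292 called higher and in 10.6% of the 857 called lower. In the list of MYC targets and ribosome biogenesis 7 of 27 genes with a window had it, and in the SHH and granule progenitor list 0 of 11. Of the 21 called higher in the former list with a window, 6 had it. Nop16 and Rrp9, among its largest rises, had 0 matches, and Eif4e, which was not called, had 2. Of the 15 largest rises 2 of 10 with a window had it, and of the 15 largest falls 1 of 9. Ldha and Nop2 were chosen for having both a rise and a match, so they do not stand for the list. A match describes the letters and not binding.

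Of 21 folate and nucleotide synthesis genes, 15 were called higher and 2 lower, at a median of 0.87. Leaving out 1 array gave 10 to 12 higher, and 1 lower or, without neurosphere replicate 1, none. Slc19a1, the reduced folate carrier that also takes up antifolate drugs, was at 9.40, 9.42 and 9.12 in tumors, against 7.45, 7.23 and 7.45 in Trp53 Cdkn2c neurospheres (1.93, SE 0.21, limma adjusted p = 3.07e-06). Fpgs, which adds glutamates to folates and keeps them in the cell, had 9.23, 9.01 and 8.24 in tumors and 7.04, 6.46 and 6.73 in Trp53 Cdkn2c neurospheres (2.09, SE 0.23, adjusted p = 4.98e-06). Ggh, which removes those glutamates, was lower, at 8.20, 8.40 and 8.43 in tumors and 9.14, 8.78 and 9.03 in Trp53 Cdkn2c neurospheres (-0.64, SE 0.20, adjusted p = 0.0376). Its call was lost in 6 of 14 alternative fits.

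Within purine synthesis Ppat, Gart, Pfas, Paics, Adsl, Impdh1 and Gmps rose, by 0.42 (Paics) to 1.38 (Impdh1). Of the one-carbon enzymes, Mthfd1l rose by 1.56, Shmt1 by 1.44, Mthfd1 by 1.10 and Shmt2 by 1.02. Dhodh, a pyrimidine enzyme of mitochondria, rose by 1.54, and Ctps2, a CTP synthase gene, fell (-0.90), though the mean of its probe sets differed by -0.18 and was not called. Its call was also lost without neurosphere replicate 1 or 2. Tyms, the thymidylate synthase gene and a target of antifolates, was at 9.92, 9.24 and 9.85 in tumors, against 9.29, 9.49 and 9.74 in Trp53 Cdkn2c neurospheres (0.16, SE 0.33, limma adjusted p = 0.817), with overlapping groups.

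**Figure D4:**
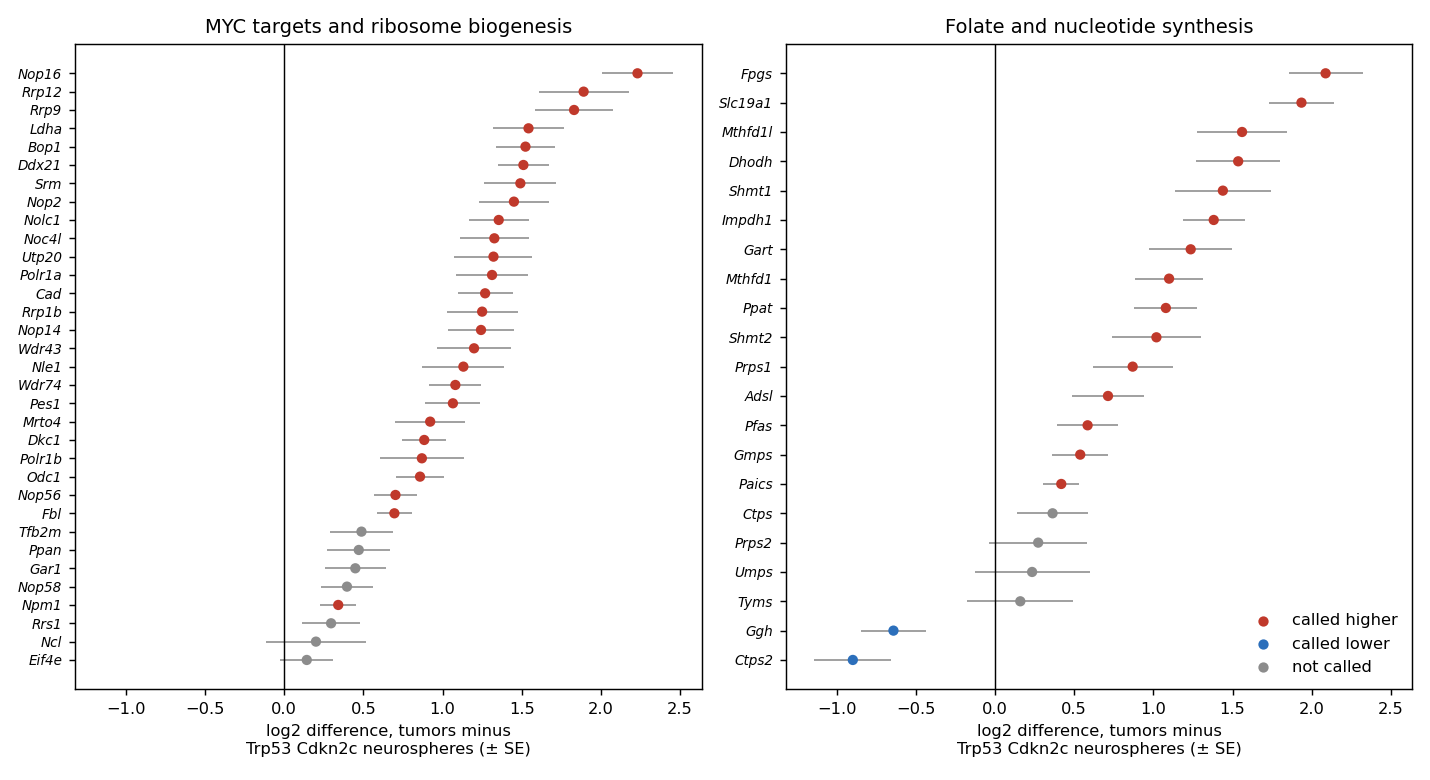
Log2 difference, Group3 tumors minus Trp53 Cdkn2c neurospheres, with its standard error, for each measured gene of MYC targets and ribosome biogenesis (left) and of folate and nucleotide synthesis (right). Red points were called higher, blue lower and grey not called. Nop16 is highest at 2.23 on the left, and on the right Fpgs is at 2.09 while Ggh and Ctps2 lie below 0.

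Of 20 nucleoside transport and salvage genes, 5 were higher and 1 lower, at a median of 0.14. The equilibrative transporters moved in opposite directions. Slc29a1 was at 9.38, 9.15 and 8.99 in tumors, against 10.66, 10.91 and 10.70 in Trp53 Cdkn2c neurospheres (-1.58, SE 0.27, limma adjusted p = 0.000411). Slc29a2 had 7.89, 7.52 and 6.97 in tumors and 5.95, 6.04 and 5.41 in Trp53 Cdkn2c neurospheres (1.66, SE 0.35, adjusted p = 0.00276). Nt5e, the ectonucleotidase CD73, rose by 3.08 on its brightest probe set and by 1.28 in the mean of its 3 probe sets. Dctd, a deaminase of dCMP, rose by 1.94 and Uck2, a uridine-cytidine kinase gene, by 1.22. Dck, the kinase that activates gemcitabine, differed by 0.04 (SE 0.37, adjusted p = 0.959) and Rrm1, a subunit of ribonucleotide reductase, by 0.53 (SE 0.26, adjusted p = 0.184).

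Glycolysis and hypoxia genes were higher in tumors for 10 of 20 measured, none lower, at a median of 1.52. Besides Ldha and Pdk1, Pfkl, a phosphofructokinase gene, was at 7.56, 8.78 and 8.22 in tumors, against 5.33, 5.66 and 5.42 in Trp53 Cdkn2c neurospheres (2.72, SE 0.52, limma adjusted p = 0.00126), with 1.81 for the mean of its probe sets. Aldoa, Pgk1 and Pkm, which encode later enzymes of the pathway, rose by 1.86, 1.5 and 1.28, and Slc16a3, a lactate exporter gene, by 2.06. The oxygen-sensing gene Egln3 rose (3.21, adjusted p = 0.0453), unevenly, at 5.76, 9.29 and 6.76 in tumors, against 4.01, 3.96 and 4.21 in Trp53 Cdkn2c neurospheres. Ankrd37, a hypoxia-induced gene, rose too (2.32, adjusted p = 0.0396), at 6.64, 8.99 and 6.53 in tumors, against 4.82, 5.46 and 4.91 in Trp53 Cdkn2c neurospheres. The calls of Egln3 and Ankrd37 were lost in 8 and 7 of 14 alternative fits. The level of the list was 8.34, 9.85 and 8.78 in tumors, 9.24, 7.51 and 8.87 in Group3 neurospheres, and 7.37, 7.27 and 7.51 in Trp53 Cdkn2c neurospheres. Each tumor was above each Trp53 Cdkn2c neurosphere sample, and the Group3 neurospheres spread as widely as the tumors. Other hypoxia targets, Vegfa (1.43), Car9 (1.29), Adm (1.27), Bnip3 (1.94) and Ndrg1 (2.10), were not called.

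Few mitosis and DNA replication genes were called. Of 29 mitosis genes limma called none, with a median of -0.01, while 3 had an unadjusted p below 0.05, and in alternative fits at most 1 was called in either direction. Mki67, the gene of the Ki-67 proliferation marker, was at 10.74, 10.50 and 10.65 in tumors, against 11.47, 11.54 and 10.58 in Trp53 Cdkn2c neurospheres (-0.57, SE 0.30, limma adjusted p = 0.223). Of 42 DNA replication genes 2 were higher, Ccne1, the cyclin of S phase entry, by 1.63 (adjusted p = 0.00157) and Pold2, a DNA polymerase delta subunit gene, by 1.0. Without neurosphere replicate 2 the count was 1. Of 14 genes in a list of cyclin D, CDKs and their inhibitors, which also held Rb1, 3 fell. They were Rb1 (-1.20), Cdkn2d (-1.10) and Cdkn1b (-0.92), and the fits on 12 or 6 arrays gave 7 falls. The means of the probe sets of Rb1 and Cdkn1b differed by -0.75 and -0.51. Among 20 repair and checkpoint genes, Atr rose (1.13) and Rad18 fell (-0.82). The means of their probe sets differed by 0.37 and -0.25 and were not called. The call of Atr was also lost without neurosphere replicate 3, and that of Rad18 in 9 of 14 alternative fits. Of 19 genes known as targets of p53, which both groups lack by their labels, Aen, Sesn1 and Tigar rose by 1.12, 1.06 and 0.93, with 0.66 for the mean of the probe sets of Aen. Pmaip1 fell (-2.42, or -1.58 without tumor replicate 1), a call lost in 5 of 14 alternative fits, among them those without tumor replicate 1 and without neurosphere replicate 2 or 3. Cdkn1a, the best known of them, differed by -0.05 (adjusted p = 0.972).

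Markers of other cell types were read in each array, since tumors can hold cells of other types. Microglia and macrophage markers lay at overlapping levels in tumors and Trp53 Cdkn2c neurospheres. Limma called none of 19, 0 had an unadjusted p below 0.05, and the median difference was 0.13. The fit on the 12 dka arrays called 1. C1qb, a complement gene of macrophages, was at 7.77, 7.31 and 7.80 in tumors, at 3.64, 3.44 and 3.63 in Group3 neurospheres, and at 7.27, 7.98 and 7.57 in Trp53 Cdkn2c neurospheres. The list level was 5.97 to 6.23 in tumors, 3.92 to 4.05 in Group3 neurospheres and 5.70 to 6.07 in Trp53 Cdkn2c neurospheres. Against Group3 neurospheres, 12 of the 19 were higher in tumors (8.81% of all genes). The neurospheres labelled as granule progenitors thus carried macrophage marker signal, in a range that overlapped that of the tumors.

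**Figure D5:**
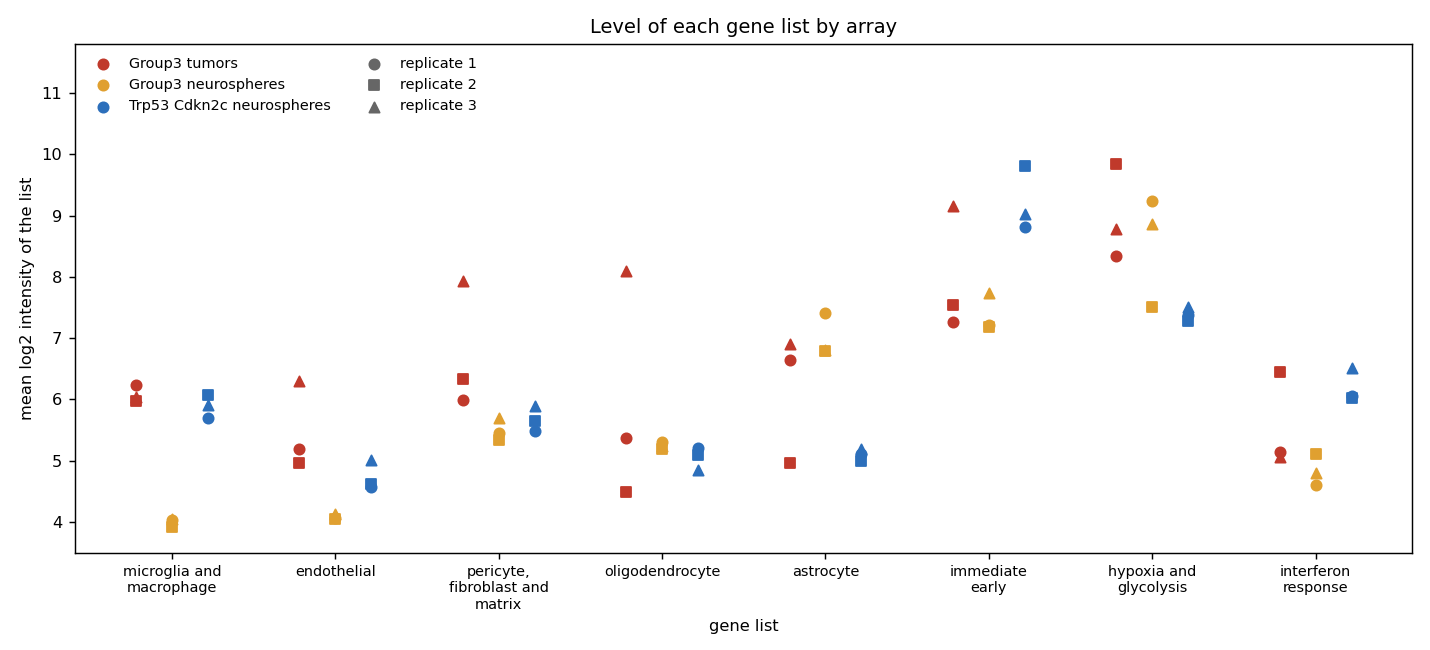
Mean log2 intensity of the measured genes of 8 lists in each array of Group3 tumors (red), Group3 neurospheres (yellow) and Trp53 Cdkn2c neurospheres (blue), with a marker shape for each replicate. Macrophage marker levels overlap in tumors and Trp53 Cdkn2c neurospheres, and tumor replicate 3 stands highest for oligodendrocyte, pericyte and endothelial markers, at 8.10, 7.94 and 6.29.

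A minority of vessel markers were called higher in tumors than in Trp53 Cdkn2c neurospheres. Of 18 endothelial genes, 6 rose and none fell, at a median of 0.66, but the count was 2 without tumor replicate 3, 2 without neurosphere replicate 1 and 3 without neurosphere replicate 2. Fits on the 12 or 6 arrays also gave 2. Against Group3 neurospheres, 16 of the 18 were higher in tumors and none lower (8.81% and 9.74% of all genes). The list level averaged 5.48 in tumors, 4.08 in Group3 neurospheres and 4.73 in Trp53 Cdkn2c neurospheres. Between the 2 kinds of neurosphere, 3 were lower in Group3 and none higher (9.22% and 13.4% of all genes). Vwf, the von Willebrand factor gene, was at 5.86, 6.17 and 7.12 in tumors, against 4.72, 3.97 and 4.29 in Trp53 Cdkn2c neurospheres (2.06, SE 0.34, limma adjusted p = 0.000307). Egfl7, a secreted protein gene of endothelium, rose by 2.06, Emcn by 1.94 and Esam by 1.17, and without tumor replicate 3 Emcn and Esam were at 1.25 and 0.63 and were not called. The endothelial markers Pecam1 (0.69), Flt1 (0.71), Kdr (0.64) and Cdh5 (0.32) were not called (limma adjusted p = 0.0696, 0.103, 0.215 and 0.587). Of 18 pericyte, fibroblast and matrix genes, 4 rose and 1 fell, at a median of 1.25, with 7 rises without tumor replicate 1 and 1 in the fit on 6 arrays. Against Group3 neurospheres, 9 of these 18 were higher in tumors and none lower. Rgs5, a pericyte gene, had 8.43, 8.64 and 10.75 in tumors and 6.40, 6.18 and 8.03 in Trp53 Cdkn2c neurospheres (2.41, SE 0.50, adjusted p = 0.0023). The part of vessel cells in the other rises was not tested.

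Some markers of other cell types were uneven among tumors. Mbp, a myelin gene, was at 8.48, 6.20 and 11.58 in tumors, against 6.70, 6.43 and 6.32 in Trp53 Cdkn2c neurospheres, and the oligodendrocyte list was at 5.36, 4.48 and 8.10 in tumors, against 5.21, 5.09 and 4.85 in Trp53 Cdkn2c neurospheres. None of its 11 measured genes rose, or 3 without tumor replicate 2, and Pdgfra, a receptor gene of oligodendrocyte precursors, fell (-3.14, limma adjusted p = 1.13e-06), which is also the fall in the pericyte list. The astrocyte list was at 6.64, 4.97 and 6.90 in tumors and between 4.99 and 5.19 in Trp53 Cdkn2c neurospheres, with 1 of 12 called, Ntsr2 (3.08), which lost its call whenever 1 array was left out. The count was then 2 without tumor replicate 2 and 0 without any other 1 array. In Group3 neurospheres the astrocyte list was at 7.41, 6.78 and 6.81, so its signal was not particular to tumors. There 3 of the 12 were higher and 1 lower than in Trp53 Cdkn2c neurospheres (13.4% and 9.22% of all genes). Against Group3 neurospheres, 2 were lower in tumors and none higher (9.74% and 8.81% of all genes). Of 12 choroid plexus and ependyma genes 1 rose and 1 fell, at a median of 0.15. Ttr, the transthyretin gene of choroid plexus, was at 9.57, 9.25 and 3.66 in tumors, against 3.56, 3.71 and 3.92 in Trp53 Cdkn2c neurospheres, and was not called (adjusted p = 0.143). The rise was Rsph1, a gene of motile cilia (0.72), whose call was lost in 7 of 13 alternative fits. Clic6, another choroid plexus gene, fell (-4.04), with 3.92, 4.0 and 3.92 in tumors, against 5.94, 8.29 and 9.72 in Trp53 Cdkn2c neurospheres. Of 4 red blood cell genes, at a median of 0.17, the hemoglobin gene Hba-a1 was called lower in tumors (-1.46), a call lost in 8 of 14 alternative fits. Its other probe sets differed by 1.56 and -0.73 and the mean of all 3 by -0.21, so no direction is given for it. No lymphocyte gene of 11 was called and all were below the array medians, and of 9 neutrophil genes Ngp was called (0.54, or 0.32 and not called without tumor replicate 1), dim in both groups.

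Immediate early genes, which respond within minutes to handling and to growth signals, were lower in tumors for 5 of 17 at a median of -1.10. Their level was 7.27, 7.54 and 9.15 in tumors, against 8.81, 9.81 and 9.02 in Trp53 Cdkn2c neurospheres, so tumor replicate 3 lay among these neurospheres. In Group3 neurospheres the level was 7.22, 7.17 and 7.74. There 9 of the 17 were lower than in Trp53 Cdkn2c neurospheres (9.22% of all genes) and none higher, at a median of -1.87. The low level was thus not particular to tumors. Egr1 was at 9.57, 7.19 and 11.59 in tumors and 12.05, 13.14 and 11.94 in Trp53 Cdkn2c neurospheres (-2.92, SE 0.96, limma adjusted p = 0.044), and differed by -1.79 without tumor replicate 2. The count was 2 without tumor replicate 1, 1 without tumor replicate 2, 3 without neurosphere replicate 1 or 3, and 1 without neurosphere replicate 2. Fits on the 12 dka arrays and on the 6 arrays gave 2 and 1, and quantile normalization of the 6 arrays gave 1. Interferon response genes gave 2 falls among 17, Ifih1 (-2.15) and Oasl2 (-2.12), both sensors or effectors of antiviral defence. Cxcl10, an interferon-induced chemokine, had 6.36, 8.92 and 8.08 in tumors and 8.36, 8.50 and 8.32 in Trp53 Cdkn2c neurospheres. Without tumor replicate 3 the number of falls was 1. Among 14 antigen presentation genes the immunoproteasome subunits parted, Psmb10 rising by 1.44 (adjusted p = 0.00435) and Psmb8 falling (-1.59, adjusted p = 0.00915), or -0.85 for the mean of its probe sets.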

How the data were processed

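RNA was taken up in Trizol, amplified with the NuGEN Ovation Pico WTA V2 kit, labelled with the Encore Biotin kit and read on mouse Affymetrix HT MG-430 PM arrays, per the labels. The deposited values are log2 intensities that the authors made with RMA (version not given in the sources used here) and Partek 6.6, per the submitters' processing notes, and they were used as they stood. Of 45141 probe sets, 28898 had 1 gene symbol, 551 several and 15692 none in the platform annotation, and the brightest over all arrays was taken for each of 17097 genes. The authors' genome build is not given in the sources used here. Trp53 was not analysed here.

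The model in limma 3.58.1 (R 4.3.3) covered all 26 arrays and held a mean for every one of 9 groups split by title code. Variances were moderated by eBayes, and p-values were adjusted by Benjamini-Hochberg over all genes, with a threshold of 0.05. SE is the moderated standard error, from the spread pooled over all 26 arrays, and every p-value of a gene is limma's. The arrays differed in range by title code. The lowest value of an array was 2.56 to 2.69 for code dka and -0.41 to 2.64 for the other code, mmm. The highest was 13.73 to 13.86 for dka and 13.73 to 16.11 for mmm. The pooled spread and the choice of the brightest probe set draw on both codes. The number of arrays, 3 a group, limits precision.

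Genes were named by rule: the genotype genes with Mycn and Mycl, the 15 top rises and 15 top falls with no overlap of arrays, up to 4 called members of each list in each direction, and the first markers of each cell type list. For the top rises and falls the higher group mean also had to lie above the array median, and predicted genes and clone names were left out. Other list members in the text were chosen after their values were seen. The 33 lists held 646 genes, 581 of them measured. Members and lists were chosen with earlier results of these data known. Promoter sequences came from RefSeq. Python 3.11.15 with matplotlib 3.10.9 drew the figures.

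Alternatives changed the arrays in the fit, the variance model, the probe set, the filter on dim genes, the normalization, the fold and the replicates.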

Additional observations from a re-analysis of the deposited data

How the results depend on the processing

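Fits with other arrays, variance model, probe set, filter or normalization called 2307 to 2988 genes, against 2668 in the fit reported. The fit on the 6 arrays and quantile normalization kept 66.5% and 66.9% of those 2668 calls in the same direction, and leaving out 1 array kept 64.4% to 74.1%. The fit on the 12 dka arrays kept 77.7%, and taking the brightest probe set over the 6 arrays kept 99.2%. Asking for at least 2-fold as well left 1467, of them 789 higher and 678 lower. Leaving out 1 array gave 1791 to 2259 called genes, with 1040 to 1288 higher and 695 to 971 lower. The fewest higher came without neurosphere replicate 2 and the fewest lower without tumor replicate 1. Mycn changed sign with the mean of its probe sets (-0.32) and with each of its other probe sets (-6.31 and -3.46). Of the 108 named genes that were called, 60 were called in each alternative fit and 48 lost the call in 1 or more. No paired analysis was possible because replicate numbers follow the order of deposit and pair no samples. No depth applies to arrays, and dim probe sets limit the size of differences: 334 genes called higher were below the array median in Trp53 Cdkn2c neurospheres and the number called lower and below it in tumors was 249.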

Other observations

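Cholesterol synthesis genes gave 2 rises and no fall among 17 measured, at a median of 0.61 in tumors against Trp53 Cdkn2c neurospheres. Sqle, the squalene epoxidase gene, was at 9.64, 10.16 and 9.98 in tumors, against 9.39, 9.11 and 8.87 in Trp53 Cdkn2c neurospheres (0.80, SE 0.19, limma adjusted p = 0.00619). Idi1, which isomerises isopentenyl diphosphate, rose by 0.90 and lost its call in 7 of 14 alternative fits. The number of rises was 1 without tumor replicate 2 or 3 or without neurosphere replicate 1 or 2, and 5 after quantile normalization of the 6 arrays. The list level was 8.38, 8.82 and 8.74 in tumors, 9.52, 8.38 and 9.23 in Group3 neurospheres, and 8.18, 8.24 and 8.32 in Trp53 Cdkn2c neurospheres.

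Of the response to unfolded protein and to amino acid shortage, limma gave 3 rises among 19 genes. Besides Shmt2 they were the serine synthesis enzyme Phgdh (0.78) and the asparagine synthetase gene Asns (0.71), and the calls of both were lost in 7 and 6 of 14 alternative fits. Without tumor replicate 2, or without neurosphere replicate 1 or 2, none of the 3 was called, and 1 was called without tumor replicate 1 or neurosphere replicate 3. Hspa5, the chaperone of the endoplasmic reticulum, differed by 0.02 and was not called.

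Klf4, a transcription factor of pluripotent and epithelial cells, fell (-2.60, limma adjusted p = 0.0338), at 6.17, 5.81 and 9.32 in tumors, against 8.35, 11.48 and 9.27 in Trp53 Cdkn2c neurospheres. The groups overlapped through tumor replicate 3, and the call was lost in 7 of 14 alternative fits. Without neurosphere replicate 2 the difference was -1.71. Perp, known as a target of p53, differed by 2.18 and was not called.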
